A study of Mus musculus with 9 samples.

Results

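The 6 MHC class II antigen presentation genes Cd74, H2-Aa, H2-Ab1, H2-Eb1, H2-DMa and H2-Ob were followed through 3 groups of mouse bone marrow endothelial progenitor cells (EPCs). They are 6 of the 2810 genes that appear in at least 1 of the 3 deposited comparison tables, and were taken by gene symbol, as 1 invariant chain, 3 classical chains and 2 peptide loading genes. They were selected on the differences between groups that these same libraries show, so their levels and fold changes are given as a description, and no test of them is read as support. The cells were Sca-1+/CD31+ EPCs, sorted magnetically from lineage-depleted bone marrow and cultured in EGM-2, an endothelial growth medium without estrogen, from males (M-EPCs), intact females (F-EPCs) and females after ovariectomy (OVX-EPCs). All were C57BL/6 J mice of 8 weeks of age, and ovariectomy, which removes the main source of estrogen, was done at around 35 days of age. RNA was sequenced in 3 libraries per group, and the study's methods speak of biological replicates. Which animals or cultures a library came from is not given in the labels, so p-values measure the spread between these libraries.

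MHC class II molecules are heterodimers of an alpha and a beta chain that display peptides from endocytosed proteins to CD4+ T cells. New heterodimers are held in the endoplasmic reticulum by the invariant chain, Cd74, which blocks the peptide groove and carries the complex to endosomes. There proteases trim Cd74 to a short fragment, and H2-DM exchanges that fragment for antigenic peptide, while H2-O, found chiefly in B cells, binds H2-DM and restrains it. The classical chains and Cd74 are switched on together by the coactivator Ciita, which is constitutive in professional antigen presenting cells and is induced by interferon gamma in many other cells, endothelium included.

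Ciita is recruited to class II promoters by factors that sit on an X box and a Y box before the start. To show these elements, 90 bases that end 21 bases before the RefSeq start are printed for the genes whose promoter window held both (build GRCm38.p6, gene strand, 5′ to 3′). Capitals mark GCAAC and TGANG, the cores of the X box, and TGATTGG, the Y box. These letters were chosen after the windows had been looked at.
H2-Aa (alpha chain of I-A; chr17:34287844-34287933, minus strand): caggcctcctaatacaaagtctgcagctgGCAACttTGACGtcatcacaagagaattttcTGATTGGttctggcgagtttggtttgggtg
H2-Eb1 (beta chain of I-E; chr17:34305757-34305846, plus strand): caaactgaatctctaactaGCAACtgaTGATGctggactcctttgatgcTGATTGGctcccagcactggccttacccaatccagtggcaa
H2-Ob (beta chain of H2-O; chr17:34238795-34238884, plus strand): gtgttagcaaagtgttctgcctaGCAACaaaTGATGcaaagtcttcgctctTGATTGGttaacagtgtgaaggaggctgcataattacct
The X box letters began 81, 91 and 87 bases before the start of H2-Aa, H2-Eb1 and H2-Ob, with 19, 17 and 15 bases between them and the Y box. Of 32851 promoter windows, each with 250 bases before a start and 50 after it, 0.435% held GCAAC and TGANG 2 or 3 bases apart on either strand, and 7.82% held TGATTGG. Both in this order, 10 to 30 bases apart on the same strand, were found in 4 windows, those of H2-Aa, H2-Eb1, H2-Ob and 1700048F04Rik. A match describes letters and not a bound site.

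Promoter windows were at hand for 4 of the 6 genes, and neither of the 2 windows of H2-DMa held the X or the Y box letters. The windows of 4 other class II chain genes, H2-Oa, H2-DMb1, H2-DMb2 and H2-Eb2, held the Y box letters in 4 of 4 and the X box letters in 0 of 4. The letters are fixed patterns chosen with the windows in view, so their absence does not mean that a window lacks the box. The H2-DMa windows lie before starts at chr17:34122832 and chr17:34125518, and only the former is the start of a coding transcript in GENCODE vM21. The other 2 coding transcripts of H2-DMa start at positions 34135628 and 34135654, outside these windows. The promoters of H2-Ab1 and Cd74 were not analysed here.

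Each comparison was deposited as a separate table that lists only the genes past the authors' screen, 2093 for M-EPCs against F-EPCs, 1317 for M-EPCs against OVX-EPCs and 811 for F-EPCs against OVX-EPCs. A value is a normalized count, the reads of a gene divided by a size factor of the library. A library had 1602317 to 2070442 reads on the genes listed for M-EPCs against F-EPCs, 707791 to 923145 on those for M-EPCs against OVX-EPCs, and 454298 to 468833 on those for F-EPCs against OVX-EPCs. To set the 3 groups side by side, all levels below are on a common scale, that of the M-EPC against F-EPC table, to which the OVX-EPC libraries were brought through the M-EPC libraries. Carried over through the F-EPC libraries, the levels differed by at most 0.358%.

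Cd74, the invariant chain (ENSMUSG00000024610, chromosome 18, 60803848 to 60812652, mm10), had the highest level per kilobase of the 6 genes in every group. Its normalized counts were 78769, 76224 and 79360 in M-EPCs, 14191, 13648 and 15445 in OVX-EPCs and 2803, 2770 and 2518 in F-EPCs. The 3 groups did not overlap, and the lowest M-EPC library was far above the highest OVX-EPC library. Means were 78118 ± 1667 (SD, n = 3) in M-EPCs, 14428 ± 922 in OVX-EPCs and 2697 ± 156 in F-EPCs. M-EPCs exceeded F-EPCs by 4.86 on the log2 scale (SE 0.09; 29.0-fold) and OVX-EPCs by 2.44 (SE 0.12; 5.42-fold), and F-EPCs were below OVX-EPCs with a log2 fold change of -2.42 (SE 0.12; 5.36-fold). Log2 fold changes here and below come from limma on log2(normalized count + 1) within each table. In bulk libraries such as these, more cells that express a gene and more RNA per cell cannot be told apart.

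**Figure D1:**
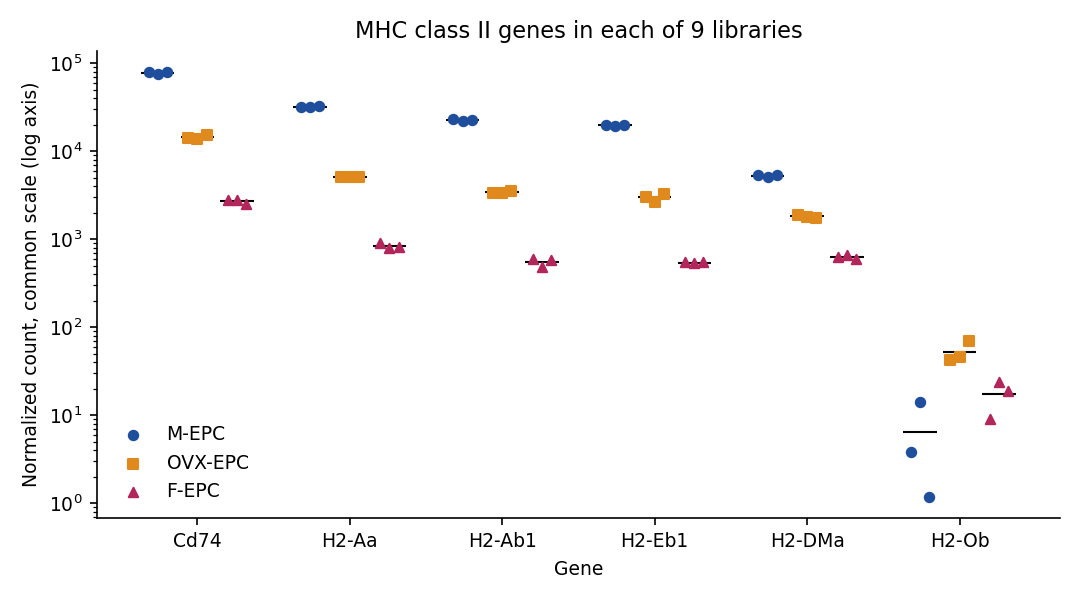
Normalized counts of the 6 genes on the common scale (log axis), a point per library and a black line at the group mean (n = 3). For Cd74, the classical chains and H2-DMa, M-EPC libraries lie highest, OVX-EPC libraries between and F-EPC libraries lowest, whereas H2-Ob is highest in OVX-EPCs, at 42.4 to 69.8.

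The 3 classical chains followed the order of Cd74 with larger differences. H2-Aa, the alpha chain of I-A (ENSMUSG00000036594, chromosome 17, 34282744 to 34287823), had normalized counts of 31384, 31999.7 and 32313 in M-EPCs, 5157, 5123 and 5056 in OVX-EPCs and 904, 790.2 and 807 in F-EPCs. H2-Ab1, the beta chain that pairs with it (ENSMUSG00000073421, chromosome 17, 34257689 to 34269419), had 23039.8, 21748 and 22459.7 in M-EPCs, 3348, 3351 and 3536 in OVX-EPCs and 603, 481 and 589 in F-EPCs. H2-Eb1, the beta chain of I-E (ENSMUSG00000060586, chromosome 17, 34305867 to 34316674), had 19666, 19442 and 19668 in M-EPCs, 3045, 2676 and 3230.0 in OVX-EPCs and 547, 536 and 545 in F-EPCs. For each chain every M-EPC library was above every OVX-EPC library, and every OVX-EPC library above every F-EPC library. The alpha chain of I-E, H2-Ea, which C57BL/6 mice do not express, was in no table, and H2-Eb1 reads may in part come from Gm20513, which overlaps it.

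Between M-EPCs and F-EPCs the log2 fold change was 5.26 (SE 0.10) for H2-Aa, 5.33 (SE 0.12) for H2-Ab1 and 5.17 (SE 0.08) for H2-Eb1, or 38.3-fold, 40.3-fold and 36.0-fold. Between M-EPCs and OVX-EPCs it was 2.64 (SE 0.12), 2.72 (SE 0.12) and 2.72 (SE 0.13). Between F-EPCs and OVX-EPCs it was -2.62 (SE 0.11), -2.62 (SE 0.14) and -2.46 (SE 0.12). The 3 chains thus lay close to each other in each comparison, and each lay farther from zero than Cd74. Libraries of a group were close, with coefficients of variation of 0.662% to 2.89% in M-EPCs, 1.0% to 9.46% in OVX-EPCs and 1.15% to 11.9% in F-EPCs for the 3 chains.

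H2-DMa, the alpha chain of the peptide exchange factor H2-DM (ENSMUSG00000037649, chromosome 17, 34119541 to 34139101), kept the same order over a smaller range. It had normalized counts of 5384, 5107 and 5359 in M-EPCs, 1909.9, 1803 and 1764 in OVX-EPCs and 625, 668 and 601 in F-EPCs. The groups did not overlap here either. Means were 5283 ± 153 (SD, n = 3), 1825 ± 75.7 and 631 ± 34.1, and the log2 fold changes were 3.06 (SE 0.09) for M-EPCs over F-EPCs, 1.53 (SE 0.12) for M-EPCs over OVX-EPCs and -1.53 (SE 0.11) for F-EPCs over OVX-EPCs. The annotated H2-DMa gene overlaps 4 others, Brd2, CR974462.3, CR974462.4 and Gm20493. The kit marks strand, but whether counting used strand is not given in the sources used here, so reads from overlapping genes cannot be told apart.

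H2-Ob, the beta chain of the H2-DM inhibitor H2-O (ENSMUSG00000041538, chromosome 17, 34238903 to 34254414), was scarce and had another order. Its promoter stretch printed above matched the same search pattern as those of H2-Aa and H2-Eb1, a pattern chosen after the windows had been looked at. H2-Ob had 45, 50 and 74 reads in OVX-EPCs, 9, 25 and 20 reads in F-EPCs and 4, 16 and 1 reads in M-EPCs. The normalized counts were 42.4, 46.1 and 69.8 in OVX-EPCs, 9.09, 24.2 and 19.0 in F-EPCs and 3.81, 14.4 and 1.20 in M-EPCs. OVX-EPC libraries were thus the highest, and the M-EPC and F-EPC libraries overlapped, since the highest M-EPC library was above the lowest F-EPC library. The log2 fold change was -3.27 (SE 0.72) for M-EPCs over OVX-EPCs and -1.62 (SE 0.40) for F-EPCs over OVX-EPCs, and the table of M-EPCs against F-EPCs does not list H2-Ob. The value for M-EPCs over OVX-EPCs moved to -4.03 without the second M-EPC library and to -2.61 without the third. H2-Oa, the alpha chain that pairs with it, was in no table.

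**Figure D2:**
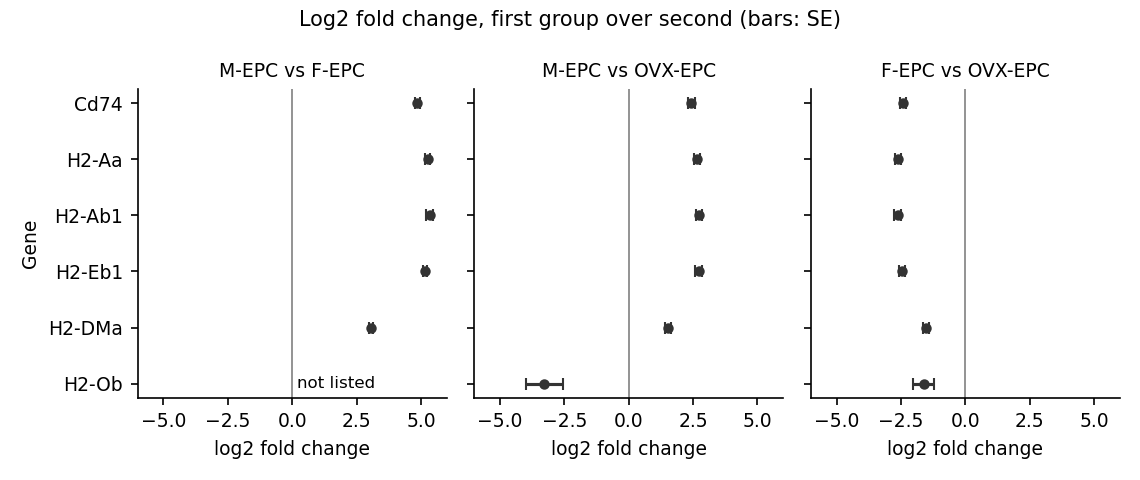
Log2 fold change of each gene, first group over second, in the 3 comparisons, with its standard error as a bar (3 libraries per group). Cd74 and the classical chains lie between 4.86 and 5.33 in M-EPCs over F-EPCs with H2-DMa at 3.06, and H2-Ob is the only gene below zero in M-EPCs over OVX-EPCs.

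For description only, since the genes were selected on these contrasts, they were set beside all listed genes at an adjusted p under 0.05 by limma and a log2 fold change of 1 or more in size. All 5 listed genes of the set passed, higher in M-EPCs against F-EPCs, where 97.6% of all listed genes were called in either direction. Against OVX-EPCs, 5 genes passed as higher and H2-Ob as lower in M-EPCs, where 98.8% of listed genes were called, and all 6 passed as lower in F-EPCs, where 98.2% were called. Nearly every listed gene also had groups that did not overlap, 98.3%, 99.2% and 98.9% in the 3 comparisons, beside 5 of 5, 6 of 6 and 6 of 6 of the class II genes. The tables list only genes past the authors' screen, so these counts set nothing apart about the class II genes. Their size is described by the median absolute log2 fold change, which was 5.17 over the class II genes listed for M-EPCs against F-EPCs beside 1.62 over all listed genes, 2.68 beside 1.80 for M-EPCs against OVX-EPCs, and 2.44 beside 1.66 for F-EPCs against OVX-EPCs. Among the 2093 genes of M-EPCs against F-EPCs, ranked by the size of the log2 fold change, H2-Ab1 was at place 34, H2-Aa at 36, H2-Eb1 at 38, Cd74 at 56 and H2-DMa at 257. The places were lower elsewhere. Among the 1317 genes of M-EPCs against OVX-EPCs Cd74 and the classical chains were at 347 to 434, H2-Ob at 210 and H2-DMa at 809. Among the 811 genes of F-EPCs against OVX-EPCs Cd74 and the classical chains were at 136 to 182, H2-Ob at 424 and H2-DMa at 448, the latter 2 below the median size of all listed genes.

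The level in OVX-EPCs lay near the middle of the log2 distance from F-EPCs to M-EPCs for 5 of the 6 genes. The part of that distance covered by OVX-EPCs was 49.8% for Cd74, 49.8% for H2-Aa, 49.0% for H2-Ab1, 47.5% for H2-Eb1 and 50.0% for H2-DMa. H2-Ob lay outside the range of the other groups in OVX-EPCs. These places depend on the authors' size factors. Size factors recomputed on the listed genes moved the median of all listed genes between F-EPCs and OVX-EPCs by 1.13 (edgeR with TMM) and 1.12 (DESeq2) on the log2 scale. With them the log2 fold change of F-EPCs over OVX-EPCs was -1.29 and -1.30 for Cd74, between -1.50 and -1.33 for the classical chains, -0.40 and -0.41 for H2-DMa and -0.46 and -0.47 for H2-Ob, so that the direction stayed and H2-DMa and H2-Ob fell short of a log2 fold change of 1. For M-EPCs over OVX-EPCs DESeq2 moved the median by 0.63 and gave 3.06 for Cd74 and 2.16 for H2-DMa.

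The share of the class II genes in the reads on listed genes differed between the groups and with the genes a table lists. For M-EPCs against F-EPCs it was 8.31% to 8.37% in M-EPCs and 0.275% to 0.292% in F-EPCs for the 5 genes listed there. It was 18.6% to 19.0% in M-EPCs and 3.28% to 3.53% in OVX-EPCs in their table, and 1.16% to 1.19% in F-EPCs and 6.16% to 6.71% in OVX-EPCs in theirs. Within the reads of the 6 genes, Cd74 took 49.7% ± 0.289 (SD, n = 3) in M-EPCs, 51.8% ± 1.06 in OVX-EPCs and 51.1% ± 1.49 in F-EPCs. The share of H2-DMa was 3.36% ± 0.0495, 6.57% ± 0.450 and 12.0% ± 0.659 in the same order. Cd74 thus held about the same share of the set in all groups while H2-DMa did not.

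Ratios of reads within a library are free of the size factors, and show the loading genes apart from the invariant and classical chains. For each 100 reads of Cd74, H2-DMa had 6.84, 6.70 and 6.75 reads in M-EPCs, 13.5, 13.2 and 11.4 in OVX-EPCs and 22.3, 24.1 and 23.9 in F-EPCs. The groups did not overlap and the order was the reverse of the order of the levels. The log2 ratio of H2-DMa to Cd74 differed by -1.79 (SE 0.04; 3.47-fold) between M-EPCs and F-EPCs, by -0.91 (SE 0.08; 1.87-fold) between M-EPCs and OVX-EPCs and by 0.89 (SE 0.08; 1.85-fold) between F-EPCs and OVX-EPCs, first group minus second.

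The classical chains moved against Cd74 far less, and in the other direction. H2-Aa had 40.8 ± 1.08 reads per 100 reads of Cd74 in M-EPCs, 35.5 ± 2.50 in OVX-EPCs and 30.9 ± 2.08 in F-EPCs (SD, n = 3). H2-Ab1 had 28.7 ± 0.495, 23.7 ± 0.834 and 20.8 ± 3.07, and H2-Eb1 25.1 ± 0.376, 20.7 ± 0.952 and 20.2 ± 1.28. M-EPC libraries were above all others for each chain, and OVX-EPC and F-EPC libraries overlapped for H2-Ab1 and H2-Eb1 but not for H2-Aa. The 2 chains of I-A kept nearly the same proportion to each other, at 70.3 ± 2.81, 66.8 ± 2.76 and 66.9 ± 6.03 reads of H2-Ab1 per 100 of H2-Aa in M-EPCs, OVX-EPCs and F-EPCs, values that overlapped between the groups. H2-Ob had 0.00483, 0.0189 and 0.00151 reads per 100 reads of Cd74 in the M-EPC libraries, of which the second is far above the others, and 0.363 ± 0.0797 in OVX-EPCs and 0.650 ± 0.289 in F-EPCs.

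**Figure D3:**
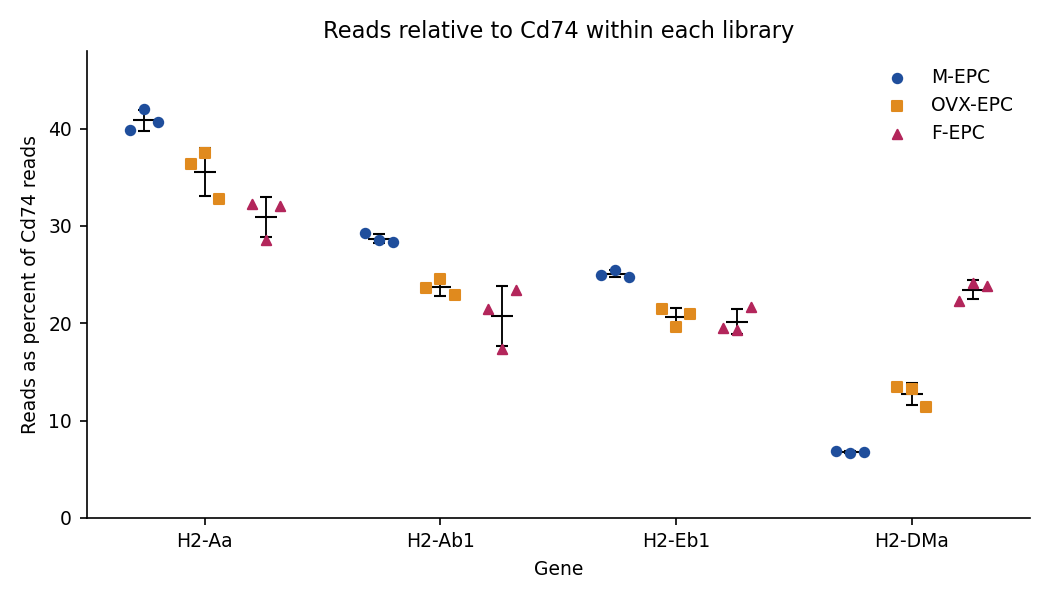
Reads of the classical chains and H2-DMa as a percent of the Cd74 reads of the same library, a point per library with the mean and SD in black (n = 3). H2-DMa is at 6.76% in M-EPCs, 12.7% in OVX-EPCs and 23.4% in F-EPCs, and the 3 classical chains are highest in M-EPCs.

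Per kilobase of merged exons, Cd74 was the highest of the 6 genes and H2-Ob the lowest in each group. The level of Cd74 per kilobase was 4.62 to 5.54 times that of the classical chains in M-EPCs, 5.60 to 6.47 times in OVX-EPCs and 5.76 to 7.40 times in F-EPCs. It was 30.4, 16.2 and 8.77 times that of H2-DMa. With the length of the longest transcript in place of merged exons, Cd74 was 3.0, 3.64 and 4.16 times H2-Ab1 in M-EPCs, OVX-EPCs and F-EPCs, against 5.33, 6.47 and 7.40 times by merged exons, and H2-Ab1 became the second of the 6 genes. The multiple over H2-DMa became 21.0, 11.2 and 6.07 times, in the same order, and H2-DMa then stood above H2-Aa in F-EPCs.

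Other genes of the pathway were taken from lists of 47 genes. Of these, 17 were listed for M-EPCs against F-EPCs, and limma called 11 higher and 5 lower in M-EPCs. For M-EPCs against OVX-EPCs 10 were listed, of which 7 were called higher and 3 lower in M-EPCs, and 2 for F-EPCs against OVX-EPCs, both lower in F-EPCs. The share of all listed genes called was 97.6%, 98.8% and 98.2%, as above.

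Of 18 regulators of class II expression, 5 were listed for M-EPCs against F-EPCs and all 5 were called higher in M-EPCs. Ciita, the class II coactivator, had a mean normalized count of 5154 ± 174 (SD, n = 3) in M-EPCs, 1069.5 ± 108 in OVX-EPCs and 155 ± 20.5 in F-EPCs. Its log2 fold change was 5.05 (SE 0.12; adjusted p = 1e-05 by limma) for M-EPCs over F-EPCs, 2.27 (SE 0.14; adjusted p = 8.17e-05) for M-EPCs over OVX-EPCs and -2.79 (SE 0.15; adjusted p = 0.000108) for F-EPCs over OVX-EPCs. The last was -1.66 with TMM and -1.67 with DESeq2 size factors, and DESeq2 gave 2.90 for M-EPCs over OVX-EPCs. Ciita had 6.60 ± 0.0871 reads per 100 reads of Cd74 in M-EPCs, 7.40 ± 0.289 in OVX-EPCs and 5.74 ± 0.589 in F-EPCs, a difference of at most 1.29-fold between groups in which the level of Cd74 itself differed by up to 29.0-fold. Irf1, a transcription factor induced by interferon gamma that acts on the Ciita promoter, had a log2 fold change of 2.72 for M-EPCs over F-EPCs, 1.40 for M-EPCs over OVX-EPCs and -1.32 for F-EPCs over OVX-EPCs. The last was -0.19 with TMM and -0.20 with DESeq2 size factors, which ended the call. Socs1, an inhibitor of interferon signalling, was higher in M-EPCs by 2.68 against F-EPCs and by 2.34 against OVX-EPCs on the log2 scale. Ifng, interferon gamma itself, had 19, 21 and 16 reads in M-EPCs and 0 reads in every F-EPC library, which allows up to 3 reads in each. Ifng was not listed in the other comparisons.

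Of 5 other class II chains, 3 were listed for M-EPCs against F-EPCs, with 1 called higher and 1 lower in M-EPCs. H2-DMb1, the beta chain that pairs with H2-DMa in H2-DM, had normalized counts of 3396 ± 117 in M-EPCs, 1231 ± 92.9 in OVX-EPCs and 650 ± 23.8 in F-EPCs, with log2 fold changes of 2.38 (SE 0.09) for M-EPCs over F-EPCs and 1.47 (SE 0.13) for M-EPCs over OVX-EPCs. Per 100 reads of H2-DMa there were 64.3 ± 0.572 reads of H2-DMb1 in M-EPCs, 67.5 ± 4.96 in OVX-EPCs and 103 ± 2.66 in F-EPCs, so both chains of H2-DM had a smaller range than Cd74 and H2-DMb1 a smaller one than H2-DMa. H2-DMb2 is a close copy of H2-DMb1, so how reads were split between them is uncertain. It had 41, 85 and 56 reads in M-EPCs and 23, 36 and 34 in F-EPCs and was not called, with a log2 fold change of 0.96, but it was called with edgeR on the authors' size factors and with TMM, which gave 1.09. H2-Eb2, a neighbour of H2-Eb1, was called lower in M-EPCs, at 1, 0 and 0 reads against 5, 5 and 9 in F-EPCs.

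Of 10 genes for the proteolysis of Cd74 and antigen, 3 were listed for M-EPCs against F-EPCs and all 3 were called lower in M-EPCs. Ctsl, cathepsin L, which cleaves Cd74 in thymic epithelium, had a log2 fold change of -1.51 (SE 0.09) and a mean of 4141 ± 185 against 11798 ± 55.8. The aspartic proteases Ctsd and Ctse had -1.0 (SE 0.08) and -1.24 (SE 0.41). The call for Ctsd was lost with TMM, and so was that for Ctsl in M-EPCs against OVX-EPCs, where its log2 fold change was -1.01 (SE 0.13), with TMM and DESeq2 alike.

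Of 7 costimulatory, inhibitory and adhesion genes that act with class II at the T cell contact, 4 were listed for M-EPCs against F-EPCs and all 4 were called higher in M-EPCs. Cd86, a ligand of CD28, was higher by 1.67 (SE 0.09) on the log2 scale, and Cd274, which encodes PD-L1, by 2.12 (SE 0.08). Pdcd1lg2, which encodes PD-L2, was higher by 1.38 (SE 0.28) and the adhesion molecule Icam1 by 1.75 (SE 0.10). Cd86 and Cd274 were also called higher in M-EPCs against OVX-EPCs, by 1.13 and 1.36. Marchf1, the ubiquitin ligase that removes class II from the surface, was higher in M-EPCs against F-EPCs by 1.09 (SE 0.09), a call that was lost with DESeq2. Among 4 genes for partners of Cd74 at the cell surface, Cxcr2 had 0 reads in every M-EPC library against 31, 38 and 20 in F-EPCs and 13, 5 and 26 in OVX-EPCs, and Cxcr4 was called lower in M-EPCs against OVX-EPCs with a log2 fold change of -1.27 (SE 0.12), a call that was lost with DESeq2.

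Likeness to Cd74 was measured as the distance between the 3 group means of log2(normalized count + 1), each centred on its gene's own mean, over the 1282 other genes with values in all 9 libraries. The nearest was Ciita, at 0.26, followed by Gbp5 at 0.32, Gbp4 at 0.43, Gbp2 at 0.45 and Mb21d2 at 0.54. Gbp2, Gbp4 and Gbp5 encode guanylate binding proteins, GTPases induced by interferon gamma. On the same measure H2-Eb1 was 0.24, H2-Aa 0.28 and H2-Ab1 0.34 from Cd74, whereas H2-DMa was 1.27 and H2-Ob 5.02 from it. The genes nearest to H2-DMa were Fam13a, Vnn3, Gpr55, Gm17334 and Myh10, at 0.031 to 0.18, and those nearest to H2-Ob were Pou2af1 at 0.23, Plxna4 at 0.23, Ablim1 at 0.23, Apcdd1 at 0.27 and Gm8113 at 0.28. Pou2af1, a transcriptional coactivator of B cells, had mean normalized counts of 5.47 in M-EPCs, 16.2 in F-EPCs and 61.8 in OVX-EPCs. The distances rest on 3 group means of the same libraries and carry no test.

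**Figure D4:**
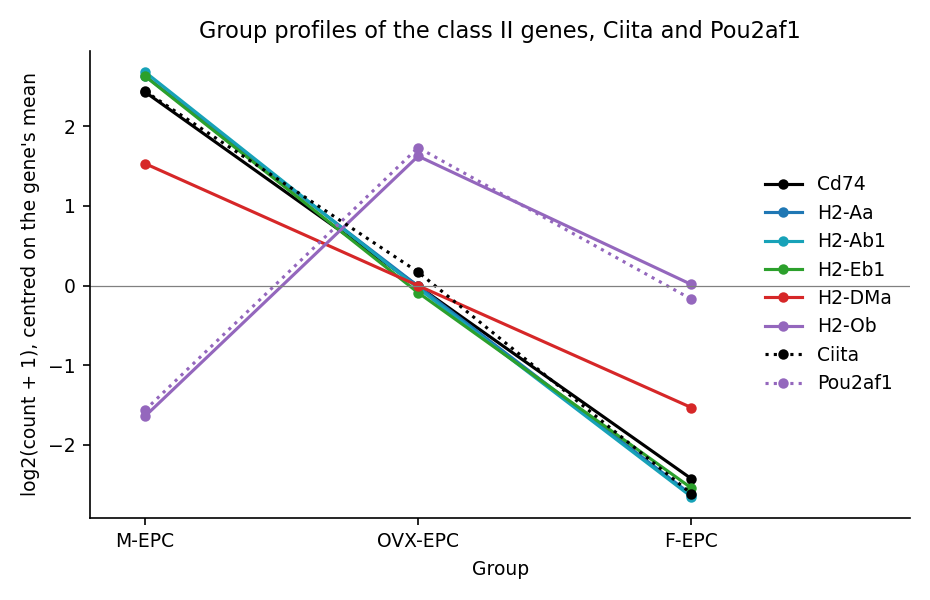
Group means of log2(normalized count + 1), each centred on the gene's own mean over the 3 groups, for the 6 class II genes, Ciita and Pou2af1 (dotted). Cd74, the classical chains and Ciita fall from M-EPCs through OVX-EPCs to F-EPCs, H2-DMa falls less, and H2-Ob and Pou2af1 are highest in OVX-EPCs.

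The 5 class II genes on chromosome 17 lie within 197 kb of each other, and H2-Ob ends 3.27 kb before H2-Ab1 begins in the annotation. The region from 200 kb before the first to 200 kb after the last, chr17:33919541-34516674, holds 30 protein-coding genes, of which 11 were listed in at least 1 table. Beside the 5 genes, these were H2-DMb1, H2-DMb2, H2-Eb2, Psmb9, Tap1 and Btnl4. Psmb9, a subunit of the immunoproteasome, and Tap1, a peptide transporter, both of the class I pathway, had log2 fold changes of 1.14 and 1.16 for M-EPCs over F-EPCs. Fold changes in both directions were thus found within the region, among direct neighbours, with H2-Ob at -3.27 and H2-Ab1 at 2.72 for M-EPCs over OVX-EPCs.

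Markers of cells that could be present in Sca-1+/CD31+ cultures moved between the groups as well. Of 12 endothelial markers, 5 had values in all 9 libraries, Kdr, Vwf, Esam, Tie1 and Pecam1, and none was at 0. Their summed normalized counts were 795 to 833 in M-EPCs, 2931 to 2971 in F-EPCs and 4054 to 4377 in OVX-EPCs. Vwf had means of 232 ± 18.3, 2351 ± 53.1 and 3376 ± 191 in the same order. It made up most of the F-EPC and OVX-EPC sums, which lie closer together than the shift between size factors. Pecam1, which encodes the sorted antigen CD31, had means of 487 ± 3.64 in M-EPCs, 363 ± 9.02 in OVX-EPCs and 157 ± 7.56 in F-EPCs, and the other 4 were lowest in M-EPCs. The call for Pecam1 as lower in F-EPCs against OVX-EPCs was lost with TMM and with DESeq2. The other 7, Cdh5 and Tek among them, were in none of the tables used here.

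Of 11 B cell markers, 9 had values in all 9 libraries. Limma called 7 lower and 1, Ighm, higher in M-EPCs against F-EPCs. Against OVX-EPCs, 8 of 8 listed were called lower in M-EPCs and 5 of 5 listed lower in F-EPCs. Of all listed genes 97.6%, 98.8% and 98.2% were called in M-EPCs against F-EPCs, M-EPCs against OVX-EPCs and F-EPCs against OVX-EPCs, and 49.5%, 41.3% and 31.4% of those calls were higher in the first group, so being called is near the background here and in the lists below. Pax5, the factor that defines B cells, had means of 8.59 ± 2.99 in M-EPCs, 48.9 ± 12.8 in F-EPCs and 84.2 ± 7.66 in OVX-EPCs. The order of OVX-EPCs above F-EPCs above M-EPCs was also that of the means of Cd79a, Cd79b, Ms4a1, Blk, Fcmr and Igkc, whereas Ighm had 1801 ± 91.5 in M-EPCs, 561 ± 59.7 in F-EPCs and 1985 ± 7.62 in OVX-EPCs. With TMM or DESeq2 size factors 4 of the 5 calls between F-EPCs and OVX-EPCs were lost and Cd79b turned in sign, and with DESeq2 its call in M-EPCs against OVX-EPCs was lost too. Pax5, Cd79a, Ms4a1 and Blk are not listed for F-EPCs against OVX-EPCs, and the gap between their means in those groups is smaller than the shift of 1.12 to 1.13 on the log2 scale that those size factors bring, so their order there rests on the authors' size factors. Summed over the 9 markers, of which Ighm is the largest, the range was 1935 to 2120 in M-EPCs, 1024 to 1251 in F-EPCs and 3417 to 3544 in OVX-EPCs. Blk was at 0 in the first M-EPC library. Cells with markers of mature blood lineages had been depleted before the sort. The part of B cells in the level of H2-Ob was not tested.

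**Figure D5:**
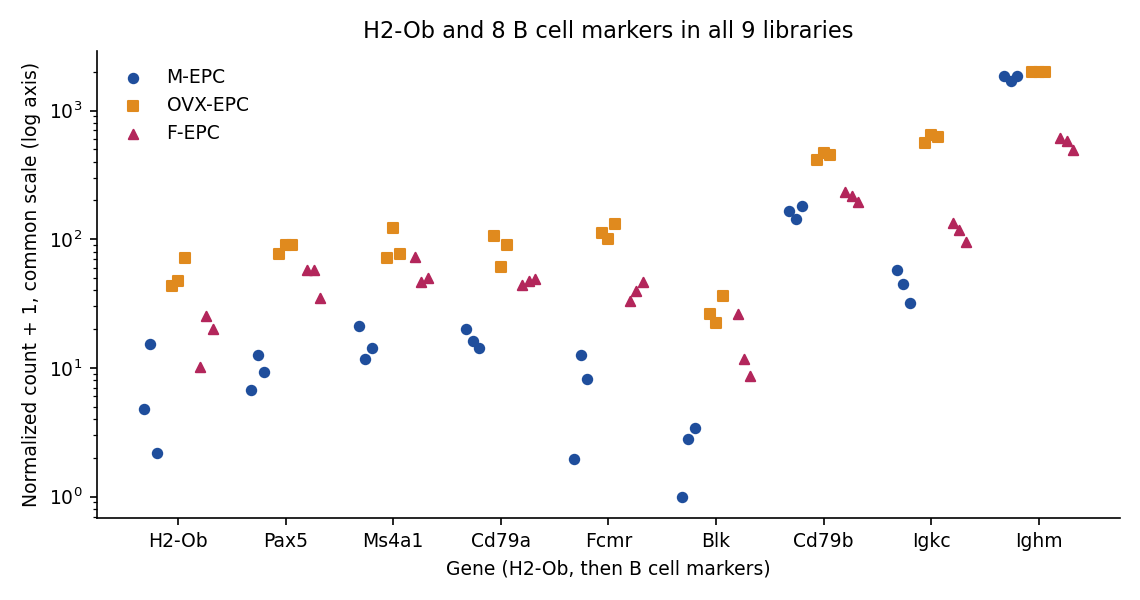
Normalized count + 1 on the common scale (log axis) of H2-Ob and of 8 B cell markers with values in all libraries, a point per library. H2-Ob and all markers shown but Ighm have their lowest mean in M-EPCs and their highest in OVX-EPCs.

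Markers of dendritic cells and macrophages, which express Cd74 and the classical chains strongly, did not all move together. Of 11 dendritic cell markers, 6 had values in all 9 libraries, with sums of 4024 to 4125 in M-EPCs, 2146 to 2237 in OVX-EPCs and 849 to 1019 in F-EPCs. These sums were carried by Clec10a, a lectin that macrophages also express, with means of 4058 ± 54.1, 2043 ± 56.1 and 726 ± 73.9. Cd209a had 0 reads in every M-EPC library, Flt3 in 2 of them and Ccr7 in 2. Limma called 2 dendritic cell markers, Batf3 and Clec10a, higher and 5 lower in M-EPCs against F-EPCs. Against OVX-EPCs, 6 of 6 listed were called lower in M-EPCs, and 2 higher and 2 lower in F-EPCs. DESeq2 size factors ended the calls for Batf3 in M-EPCs against F-EPCs and for Itgax in M-EPCs against OVX-EPCs, and TMM and DESeq2 each ended the calls for Siglech and Clec10a, the 2 that were lower in F-EPCs against OVX-EPCs. Of 12 macrophage markers only Marco and C1qa were listed in any comparison. Both were called higher in M-EPCs against F-EPCs, with summed normalized counts of 20746 to 23188 against 8795 to 9584. C1qa made up most of these sums, with means of 20234 ± 1041 against 8805 ± 338, and its call was lost with DESeq2. Marco, a scavenger receptor, had 1957 ± 240 in M-EPCs, 401 ± 31.9 in OVX-EPCs and 488 ± 100.1 in F-EPCs. The part of these cells in the levels of Cd74 and the classical chains was not tested.

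In the remaining 4 lists every listed marker was called lower in M-EPCs against F-EPCs, 4 of 4 for T cells, 6 of 6 for neutrophils and 8 of 8 each for basophils and mast cells and for megakaryocytes. Against OVX-EPCs 7 of 7, 4 of 4, 8 of 8 and 8 of 8 were called lower in M-EPCs, with the call for Ngp lost with TMM and with DESeq2. These stand beside 97.6% and 98.8% of all listed genes called in either direction. Ltf and S100a8, not listed there, had higher means in M-EPCs, at 10.6 against 5.01 and 36.7 against 26.9. Between F-EPCs and OVX-EPCs, Cd3d, Cd4 and the megakaryocyte marker Gp9 were called lower in F-EPCs, calls that were lost with TMM and with DESeq2, where Gp9 turned in sign, and 4 of 5 neutrophil markers were called higher in F-EPCs. The fifth, Elane, was not called, with a log2 fold change of -2.39 and 10, 10 and 0 reads in F-EPCs against 12, 42 and 34 in OVX-EPCs, and Mpo, not listed there, had means of 68.1 in F-EPCs and 112 in OVX-EPCs. Summed over the markers with values in all 9 libraries, T cell markers (5 of 8, mostly Cd4) lay at 1979 to 2232 in M-EPCs, 3325 to 3506 in F-EPCs and 8093 to 8924 in OVX-EPCs, and neutrophil markers (7 of 10) at 79.9 to 108, 654 to 687 and 220.5 to 312. In the same order, Cd4 had means of 2069, 3348 and 8392 and Cd3e of 0.299, 11.1 and 15.9. The T cell sum thus describes Cd4 and little of the other T cell markers. Basophil and mast cell markers (8 of 8) lay at 33.5 to 60.2, 592 to 621 and 849 to 1016, with Mcpt8 at 0 in every M-EPC library, and megakaryocyte markers (8 of 8) at 1449 to 1560.0, 10717 to 11029 and 13370.0 to 14256. The F-EPC and OVX-EPC sums of the basophil and megakaryocyte lists lie closer together than the shift between size factors. The sum was lowest in M-EPCs in each of these 4 lists. The part of these cells in the levels of the class II genes was not tested.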

How the data were processed

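RNA-seq of 3 M-EPC, 3 F-EPC and 3 OVX-EPC libraries was analysed, grouped by sample title. Per the labels and the study's methods, the authors mapped reads with HISAT2 to mm10, quantified with Cufflinks and Cuffnorm and compared groups with DESeq. They deposited a table for each comparison with a normalized count signal per library (reads over a library size factor) of the genes past their screen on fold change and FDR; their own log2 fold changes and p-values were not used. Whole reads were recovered for 100% of values (tolerance 0.0001).

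The 6 genes and all gene lists were chosen with earlier results of these data known. Limma 3.58.1 (R 4.3.3) was fitted per table on log2(value + 1) with no covariate and Benjamini-Hochberg adjustment over all listed genes, and was tested on simulated data. Pathway and marker genes past an adjusted p of 0.05 and an absolute log2 fold change of 1 were named, with the 5 nearest genes to Cd74, H2-DMa and H2-Ob. Alternatives were a pseudocount of 0.1, a mean filter of 10, stricter thresholds, a replicate block, leaving out each library, edgeR 4.0.16 (TMM, or the authors' size factors) and DESeq2 1.42.0 on recovered reads. Gene positions, lengths and overlaps are from GENCODE vM21, and promoters from RefSeq (GRCm38.p6). Python 3.11.15 and matplotlib 3.10.9 were used. Some genes of the lists are counted but not reported here. Calls concern listed genes only, and intervals or limits from reads cover counting error only.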

Additional observations from a re-analysis of the deposited data

How the results depend on the processing

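No log2 fold change of the 6 genes turned in direction under any alternative, and 156 of 187 such values moved by less than the spread between libraries. A pseudocount of 0.1, the filter on low values, the replicate block, edgeR with the authors' size factors and each library left out kept 5 of 5, 6 of 6 and 6 of 6 of the genes past the call thresholds; recomputed TMM or DESeq2 size factors left 4 of 6 between F-EPCs and OVX-EPCs. The limit is set by the tables, which hold selected genes only, so that size factors recomputed on them assume that those genes balance. The difference of the H2-DMa to Cd74 ratio kept its size in 21 of 21 alternatives. H2-Ob rests on 1 to 74 reads a library.

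With a log2 fold change of 2 or more in size required, the genes called fell from 2043, 1301 and 796 to 738, 574 and 300 in M-EPCs against F-EPCs, M-EPCs against OVX-EPCs and F-EPCs against OVX-EPCs, and the pathway genes called from 16, 10 and 2 to 8, 3 and 1. Between F-EPCs and OVX-EPCs 404 genes were called with TMM and 380 with DESeq2, and 1 pathway gene with either; the share of calls higher in F-EPCs was 31.4%, against 63.1% with TMM and 67.1% with DESeq2. That share was 49.5% for M-EPCs over F-EPCs against 37.2% with DESeq2, and 41.3% for M-EPCs over OVX-EPCs against 52.6%. Leaving out a library gave 1864 to 1913, 1208 to 1235 and 724 to 755 genes called, and 14 to 17, 9 to 10 and 2 pathway genes.

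With the replicate number as a block, 2003, 1288 and 781 genes and 16, 10 and 2 pathway genes were called, so the block changed no count by over 1.5 times. Libraries with the same number did not deviate together, with correlations of their deviations from the group means between -0.019 and 0.032, so the numbers were not taken to pair them.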
